A study of Mus musculus with 60 samples.

Results

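Balb/c 3T3 mouse fibroblasts exposed for 24 h to 700 µM 2,4-diaminotoluene (DAT) were set against fibroblasts that received the solvent alone. The comparison rests on 3 arrays titled DAT at 700 µM and 24 h and on the 3 arrays of DMSO controls that carry the labels of the second experimental approach at 24 h, out of 60 arrays in the series and 30 in that approach. The study treated this embryonic cell line with 4 carcinogens, DAT, 2-acetylaminofluorene (AAF), benzo(a)pyrene (BaP) and 3-methylcholanthrene (MCA), for 24 h or 120 h, at concentrations taken from the literature in a first approach and at IC20 concentrations in the second. The groups used below besides the DAT arrays are BaP at 1.5 µM, MCA at 20 µM and AAF at 10 µM, all for 24 h and 3 arrays each, and the controls in 0.75% DMSO. DAT at 50 µM, for 24 h and for 120 h, had its own DMSO controls of each time in the first approach, and DAT at 0.2 µM for 120 h was set against the 120 h controls of the second, again with 3 arrays a group. All cultures were of 1 established line in serum-containing medium and were treated before confluence. The labels call the arrays triplicates and do not say whether they came from separate cultures, so a p-value here weighs a difference only against the scatter of 3 arrays a group, part or all of which could come from the assay itself.

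DAT is an aromatic amine, an intermediate of the dye and polyurethane industries and a liver carcinogen of rodents. Aromatic amines and polycyclic hydrocarbons can bind the aryl hydrocarbon (Ah) receptor, a transcription factor that drives the genes of cytochromes P450 of family 1. Those enzymes oxidise many of its ligands, and some of the oxidation products bind DNA, which activates p53. Stalled translation, lack of amino acids or unfolded protein raises the transcription factor Atf4, which drives amino acid transport and synthesis as well as growth arrest genes such as Ddit3. Cholesterol synthesis in fibroblasts is set mainly by the sterol-sensing factor Srebp2, which switches the genes of the whole route together.

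Values are deposited probe set intensities on a linear scale, and differences are in log2(intensity + 16) after quantile normalization within the 30 arrays, with the SE of the limma fit after the ± sign. The median intensity of an array was 56.3, 73.1 and 57.7 with DAT, against 58.8, 65.5 and 59.4 in the controls. The 3′ to 5′ log2 ratio of the actin probe sets, a sign of RNA quality, averaged 0.380 ± 0.0762 with DAT and 0.289 ± 0.0687 in the controls (SD, n = 3 each), and that of Gapdh -0.346 ± 0.0405 with DAT and -0.318 ± 0.0362 in the controls. Most markers of the labelled cell type were bright, but Fap was dim, with mean intensities of 21.7 with DAT and 27.6 in the controls. The 10 fibroblast genes, collagens, Thy1, Vim and others, summed to 109800 to 139800 with DAT, against 107800 to 145100 in the controls, and 0 of the 10 passed the test in either direction. With the replicate block 1 was lower, Pdgfrb (difference -0.57, adjusted p = 0.000322), and the list also held 1 lower gene without DAT replicate 1 or control replicate 3. Epithelial markers summed to 180 to 245.1 with DAT, against 125 to 201.4 in the controls, and endothelial markers to 145.9 to 282.4 with DAT, against 127.2 to 218.2 in the controls. Since the arrays measure whole cultures, fewer cells of a kind and less RNA per cell cannot be told apart.

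Of 11384 genes tested, 1046 differed between DAT and control cells at an adjusted p under 0.05, which is 9.19%. Of these, 554 (4.87%) were higher and 492 (4.32%) lower with DAT, while the median difference over all genes was 0.00223. A change of at least 2-fold was reached by 67 of the higher and 42 of the lower genes. With the replicate number as a block the count was 2568 of the 11384, 1325 higher and 1243 lower, and all 1046 genes were among them. A list's count with the block is to be read against that larger share, not against the 9.19%. The count was 422 when array medians were equalised in place of quantiles, 695 without DAT replicate 1 and 648 without control replicate 2, and it was 642 when only these 6 arrays were fitted. In 1034 of the 1046, the 3 DAT arrays all lay beyond the 3 controls, as they did in 27.2% of all genes. Of the 128 genes named by rule that passed, 50 lost the call in at least 1 of the 6 fits that left out an array.

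**Figure D1:**
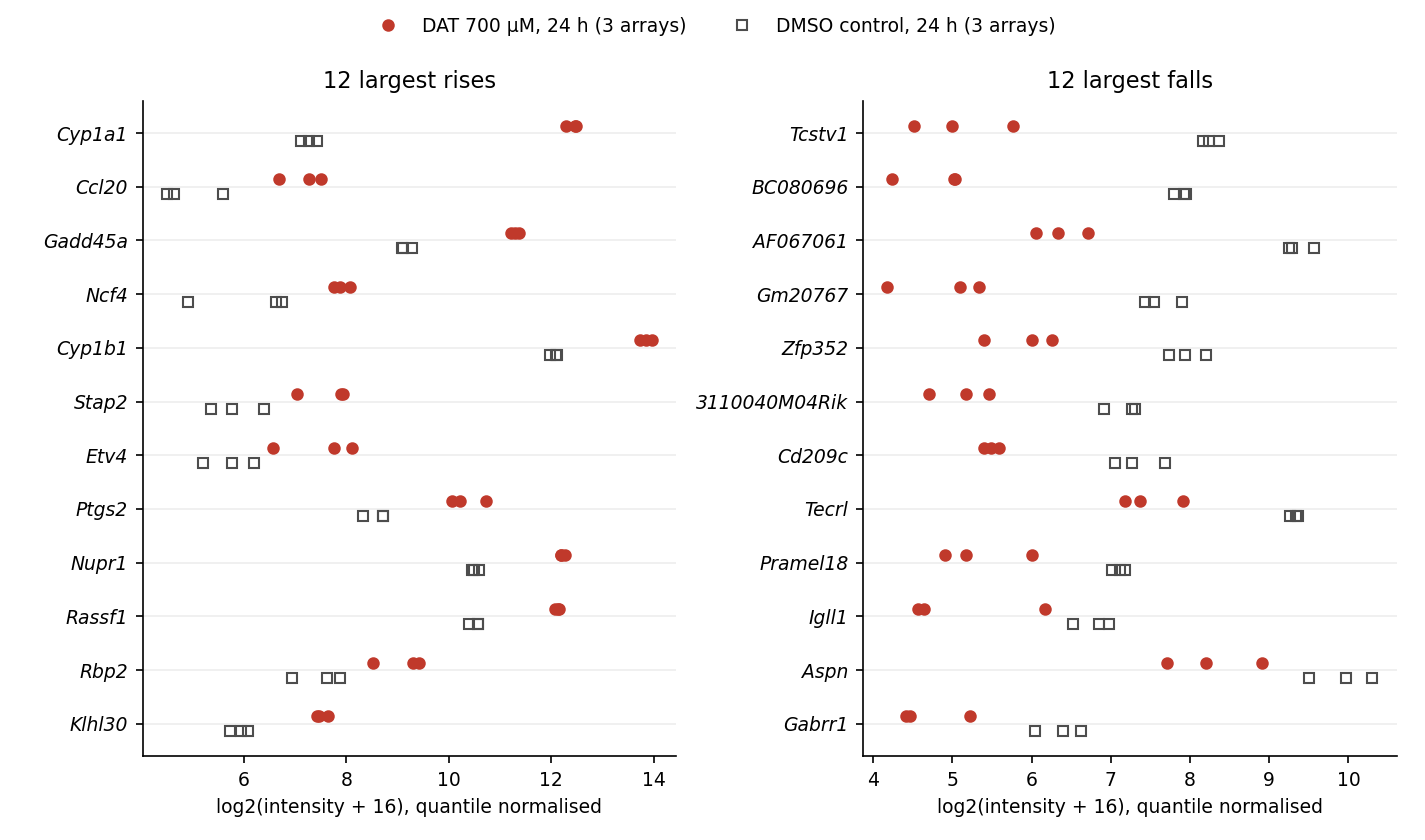
Values of the 12 genes with the largest rise and the 12 with the largest fall among genes past the threshold whose groups do not overlap, as log2(intensity + 16) after quantile normalization. Filled circles are the 3 DAT arrays and open squares the 3 control arrays; Cyp1a1 has the widest gap, and in the right panel the DAT arrays of Tcstv1, BC080696 and Gm20767 lie at the dim end of the scale.

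The gene that changed most was Cyp1a1, the P450 enzyme used as the classical readout of the Ah receptor. Its intensities were 6045, 5218 and 5983 with DAT, against 96.0, 119 and 122 in the controls. The groups were far apart, by 5.15 ± 0.17 on the log2 scale (adjusted p = 3.19e-17). Cyp1b1, the family member that fibroblasts express at rest, had 17407, 14754 and 13254 with DAT, against 4796, 4680.4 and 4349.7 in the controls. It rose by 1.79 ± 0.08 (adjusted p = 2.38e-14), and all 3 DAT arrays lay above all 3 controls. Tiparp, a mono-ADP-ribosyltransferase that damps the receptor, rose by 1.36 ± 0.14, and Nqo1, a quinone reductase that answers to the Ah receptor and to Nrf2, rose by 1.09 ± 0.12. Aldh3a1, an aldehyde dehydrogenase of the same battery that was named after its values were seen, was not past the test (0.58 ± 0.27, adjusted p = 0.212). In all, 4 of the 5 tested members of the battery rose, with a list median of 1.36. In the separate list of the Ah receptor and its partners, all 3 tested genes missed the test, with a median of -0.11. With the replicate block 1 of them, Ahr itself, was lower (difference -0.25, adjusted p = 0.039).

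Other enzymes of xenobiotic metabolism included 1 that rose and 1 that fell among 10 tested, and 5 and 1 with the replicate block. Ephx1, microsomal epoxide hydrolase, rose by 0.61 ± 0.09 (adjusted p = 6.83e-05), and Aox1, an aldehyde oxidase, fell by 0.80 ± 0.20 (adjusted p = 0.0112) although its groups overlapped after normalization. Nat2, an arylamine N-acetyltransferase, had 476, 493 and 531 with DAT, against 569, 523 and 686 in the controls. Its groups overlapped, with a difference of -0.24 ± 0.18 (adjusted p = 0.487). Of 21 genes of the Nrf2 and glutathione list, 4 rose and 0 fell (median 0.06), led by Nfe2l2, which encodes Nrf2 itself, at 0.67 ± 0.10. Srxn1, Sqstm1 and Pgd rose by 0.32 ± 0.09, 0.26 ± 0.08 and 0.24 ± 0.06, although another probe set of Srxn1 had the opposite sign. Srxn1 lost its call in each of the 6 fits that left out an array, and the list held 1 higher gene without DAT replicate 2, DAT replicate 3 or control replicate 2. Hmox1, heme oxygenase, had 1231, 1409.9 and 1899 with DAT, against 1017, 983 and 1448 in the controls, and these groups overlapped after normalization (0.35 ± 0.58, adjusted p = 0.809). Among 14 heme and iron genes, of which 1 rose and 3 with the replicate block, Cpox, an enzyme of heme synthesis, rose by 1.37 ± 0.30 (adjusted p = 0.00403), with intensities of 1815, 1504 and 1505 with DAT, against 665, 554 and 477 in the controls.

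Of 27 tested p53 targets 10 were higher and 1 was lower with DAT, and the list median was 0.42. Gadd45a, which couples DNA damage to growth arrest, had 2455, 2525 and 2729.7 with DAT, against 487, 489 and 561 in the controls. The narrow groups differed by 2.13 ± 0.16 (adjusted p = 2.15e-09). Cdkn1a, the Cdk inhibitor p21, had 3060.0, 2349 and 1970.1 with DAT, against 1154, 756 and 787 in the controls, a rise of 1.35 ± 0.23 (adjusted p = 0.000274), and a second, less bright probe set gave a smaller rise that missed the test. Btg2, an antiproliferative gene, rose by 1.07 ± 0.21, and Eda2r, a death-domain receptor, by 1.03 ± 0.15. Mdm2, the ubiquitin ligase that turns p53 over and is itself a p53 target, stayed under the threshold in intensities of 30565, 25859 and 25790.1 with DAT, against 27097, 21805 and 27456 in the controls (0.14 ± 0.05, adjusted p = 0.0818, and 0.0142 with the replicate block). The member that fell was Sesn1, named after its values were seen, at -0.44 ± 0.13 (adjusted p = 0.0328). The number of higher members was 6 after median normalization and 15 with the replicate block. Among 13 regulators of the Bcl2 family, Bcl2l2 and Bid rose by 0.75 ± 0.13 and 0.46 ± 0.14, and 0 fell; another probe set of Bcl2l2 had the opposite sign.

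Of 34 tested genes of the Atf4 and amino acid response 17 were higher and 0 lower, with a list median of 0.43. Ddit3, the factor also called Chop, had 3048, 3259 and 3586 with DAT, against 1641, 1631 and 1696 in the controls. That was a rise of 0.93 ± 0.10 (adjusted p = 1.02e-06), while a second probe set of the gene did not change past the test. Chac1, which degrades glutathione, had 3536, 3063 and 2714 with DAT, against 1750.3, 1388 and 1290.2 in the controls, a rise of 1.01 ± 0.19 (adjusted p = 0.000885). Ppp1r15a, the phosphatase subunit that restores translation, rose by 1.08 ± 0.19, and Trib3, a pseudokinase that damps Atf4, by 0.71 ± 0.14. Nupr1, a small nuclear stress protein outside that list, had 4985, 5126 and 4989.9 with DAT, against 1508, 1419 and 1365 in the controls, a rise of 1.71 ± 0.13 (adjusted p = 2.95e-09). Atf3 was dim and its groups overlapped, with 95.7, 94.6 and 62.5 with DAT, against 66.3, 76.8 and 44.5 in the controls (0.35 ± 0.35, adjusted p = 0.639). Atf4 itself, named after its values were seen, rose by 0.49 ± 0.09 (adjusted p = 0.00107). Asns, asparagine synthetase, stood at 0.15 ± 0.05 (adjusted p = 0.0791, and 0.0263 with the replicate block). The count of higher members was 6 after median normalization and 25 with the replicate block.

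The promoters of Chac1, Nupr1 and Atf3 are shown because all 3 hold an Atf4 element, while only Chac1 and Nupr1 passed the test. The stretches run from 200 to 51 bases before the RefSeq start of each gene, on the gene's own strand in build GRCm38.p6, and capitals mark the element, which lies here on the opposite strand.
Chac1 (chr2:119351042-119351191, plus strand): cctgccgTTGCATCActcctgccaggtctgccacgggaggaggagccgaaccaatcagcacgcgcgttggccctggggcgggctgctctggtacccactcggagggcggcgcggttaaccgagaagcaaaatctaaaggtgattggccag
Nupr1 (chr7:126625521-126625670, minus strand): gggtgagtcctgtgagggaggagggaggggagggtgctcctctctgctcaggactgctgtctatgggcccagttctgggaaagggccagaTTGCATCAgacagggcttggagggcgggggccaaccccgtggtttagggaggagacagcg
Atf3 (chr1:191183384-191183533, minus strand): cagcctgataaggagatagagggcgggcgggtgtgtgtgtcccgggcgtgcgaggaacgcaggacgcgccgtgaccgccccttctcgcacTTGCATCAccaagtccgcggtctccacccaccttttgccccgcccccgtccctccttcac
The element was searched as TGATGNAA on both strands from 250 bases before to 50 after each start. It was in 3.97% of 32851 mouse promoters, in 9 of 28 list genes that had a promoter entry, and in 5 of the 15 of these that rose. It begins 193 bases before the start in Chac1 and 110 before it in Nupr1 and Atf3. The share over all promoters counts every entry, while a list gene counts when any of its entries holds the element, so these shares are not alike. A match is a description, not a site or a cause. The Ah receptor element TNGCGTG, also on both strands, was in 5.07% of promoters and in 0 of the 4 members of the Ah receptor battery that had an entry, a statement about this window and nothing beyond it.

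Of 21 chaperones and sensors of the endoplasmic reticulum 3 rose and 1 fell, with a median of 0.02, and 6 rose with the replicate block. Dnajb9, a co-chaperone of the lumen, had 2198, 2342 and 1746 with DAT, against 857, 1004 and 748 in the controls, a rise of 1.18 ± 0.16 (adjusted p = 1.65e-05). The sensors Atf6 and Ern1 rose by 0.52 ± 0.15 and 0.51 ± 0.15, the splicing target Xbp1 fell by 0.37 ± 0.09, and Hspa5, the main luminal chaperone, named after its values were seen, stood at 0.11 ± 0.07 (adjusted p = 0.375). The other probe sets of Ern1 did not pass, and 1 of them had the opposite sign. In the cytosol, Cryab rose by 0.46 ± 0.12 and Hsph1 fell by 0.46 ± 0.10 among 18 heat shock genes, where 5 rose and 3 fell with the replicate block. Lysosome and autophagy genes rose in 4 of 24 cases and fell in 0 (median 0.20), or rose in 12 and fell in 1 with the replicate block, led by Gabarapl1, an autophagosome protein, which had 7130.5, 7194 and 8095 with DAT, against 4152, 3581 and 4702 in the controls and rose by 0.89 ± 0.09 (adjusted p = 3.71e-07). Neu1, the lysosomal sialidase, rose by 0.78 ± 0.14, and the cathepsins Ctsd and Ctsb by 0.42 ± 0.10 and 0.25 ± 0.08.

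**Figure D2:**
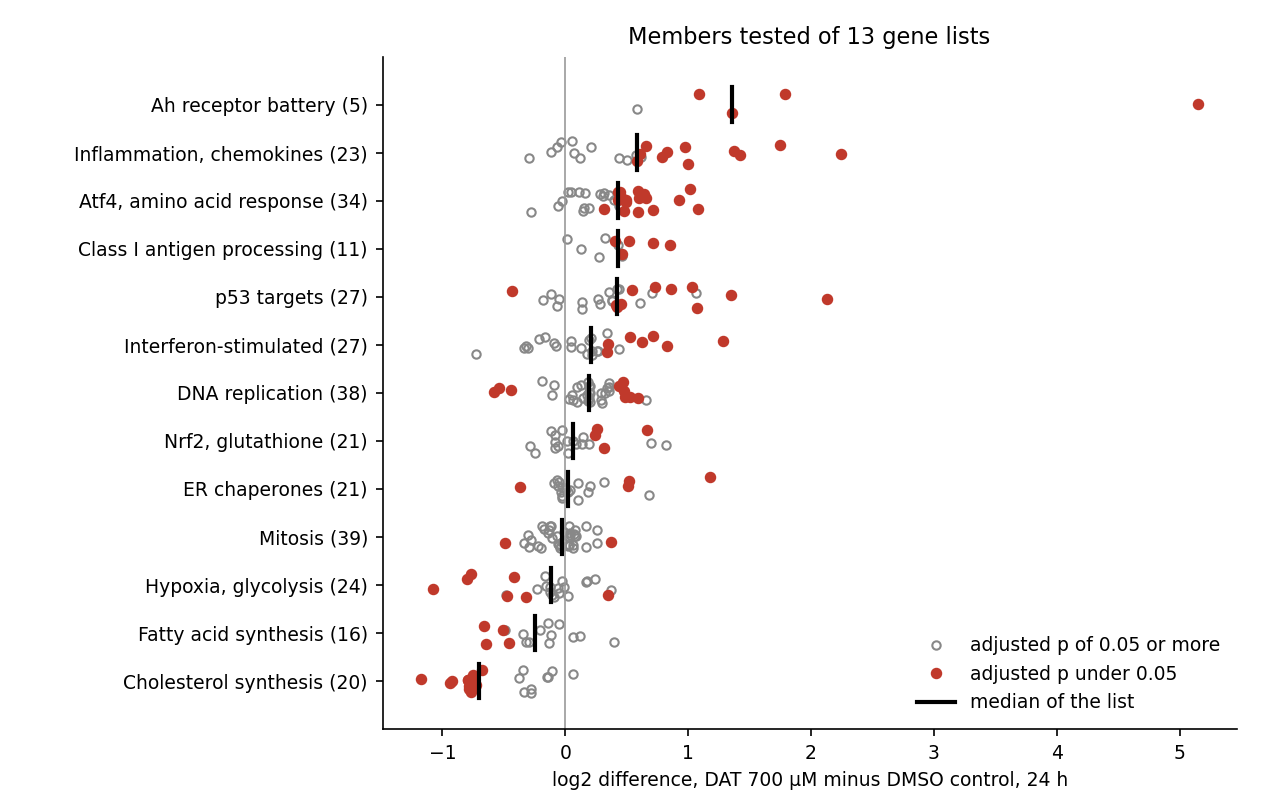
The log2 difference between DAT and control cells for every tested member of 13 gene lists, with the number of members after each name. Filled points passed the threshold of the adjusted p, open points did not, and the black bar is the list median; 11 of 20 cholesterol genes are filled and left of 0, 17 of 34 in the Atf4 list filled and right of it.

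Of 20 genes of cholesterol synthesis and uptake 11 fell and 0 rose, with a median of -0.71, and 7 fell without DAT replicate 1 or without control replicate 2. Hmgcs1, the synthase that feeds the route, had 3409.9, 3982 and 3330.2 with DAT, against 6829, 7198 and 5245 in the controls. The groups did not overlap, and the difference was -0.79 ± 0.15 (adjusted p = 0.000984). Sqle, squalene epoxidase, had 2479.6, 2546 and 2708 with DAT, against 5354, 4836 and 5472 in the controls, a difference of -0.94 ± 0.14 (adjusted p = 8.33e-05). Fdft1, squalene synthase, fell by 0.92 ± 0.13. Mvd, mevalonate diphosphate decarboxylase, fell by 0.80 ± 0.20, and Fdps, farnesyl diphosphate synthase, fell by 1.17 ± 0.37, though Fdps lost its call in 5 of the 6 fits that left out an array. Of 6 genes of cholesterol efflux and transport, Nceh1, a cholesterol ester hydrolase, rose by 0.53 ± 0.09, and Npc1, which exports cholesterol from lysosomes, by 0.49 ± 0.14, a call lost in 3 of the 6. Fatty acid synthesis had 4 of 16 genes lower and 0 higher (median -0.25), 7 lower with the replicate block. The 4 were Elovl6 at -0.67 ± 0.12, Acsl3 at -0.64 ± 0.18, Acaca at -0.50 ± 0.12 and Acss2 at -0.46 ± 0.14.

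The Hmgcs1 promoter is printed because it was the one list promoter with a sterol regulatory element in this window. Capitals mark that element and a CCAAT box, which is read on the opposite strand, and the bases run from 200 to 51 before the start.
Hmgcs1 (chr13:119690151-119690300, plus strand): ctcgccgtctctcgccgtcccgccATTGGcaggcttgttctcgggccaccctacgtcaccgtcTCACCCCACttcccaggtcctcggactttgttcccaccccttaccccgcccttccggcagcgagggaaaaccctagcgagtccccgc
The sterol element was searched as TCACNCCAC on both strands and was in 1.24% of promoters, in 1 of the 16 list genes with an entry and in 1 of 7 that fell. In Hmgcs1 it begins 137 bases before the start. A CCAAT box on either strand was in 37.4% of promoters, in 16 of the 16 list genes and in 7 of the 7 that fell. Here too the share over promoters is per entry, and a list gene counts when any of its entries matches.

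Of 23 chemokines, cytokines and NF-kB targets 11 were higher and 0 lower, and the list median was 0.59. Ccl20, a chemokine for dendritic cells and lymphocytes, had 108, 83.9 and 130.1 with DAT, against 7.11, 5.92 and 26.9 in the controls. It was near the floor of the array in the controls, and the difference of 2.25 ± 0.39 (adjusted p = 0.000354) is therefore understated by the pseudocount. Ptgs2, inducible cyclooxygenase, had 1704, 1157 and 1051 with DAT, against 353, 365 and 258 in the controls, a rise of 1.75 ± 0.24 (adjusted p = 2.24e-05). Chil1, a chitinase-like secreted lectin, rose by 1.42 ± 0.31, and Lif, a cytokine of the interleukin 6 family, by 1.38 ± 0.25. Macrophage markers summed to 1095 to 1237 with DAT, against 788.1 to 987.3 in the controls, of which Cd14, an endotoxin co-receptor, rose by 0.58 ± 0.14 (adjusted p = 0.00821), 1 of the 4 tested among 8. Of the other tested macrophage markers, mean intensities with DAT and in the controls were 432.4 and 358.1 for Lyz2, 155.5 and 135.1 for Csf1r and 69.98 and 63.06 for Cd68, and these did not pass. Those under the filter on dim genes had 39.1 with DAT and 50.4 in the controls for Adgre1, 21.2 and 27.5 for Tyrobp, 13.7 and 2.70 for Ptprc and 6.91 and 6.52 for Itgam. The part of such cells in the result was not tested.

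Of 16 genes of EGF receptor ligands and ERK feedback 5 rose and 0 fell, with a list median of 0.13. Ereg, the ligand epiregulin, had 1023, 903 and 742 with DAT, against 385, 443 and 318 in the controls, a rise of 1.06 ± 0.15 (adjusted p = 3.35e-05). Phlda1, Dusp4 and Dusp1, which damp or follow ERK activity, rose by 1.07 ± 0.29, 1.06 ± 0.29 and 0.90 ± 0.26. The list held 1 higher gene without DAT replicate 1 or control replicate 2, 2 without DAT replicate 2 or control replicate 3, 3 without DAT replicate 3 and 4 without control replicate 1. Among 23 early response factors 3 rose and 1 fell, or 6 and 2 with the replicate block. Ier3 had 4226, 3978 and 4540.3 with DAT, against 1253, 1381 and 1418 in the controls and rose by 1.54 ± 0.15 (adjusted p = 2.18e-07), Fosl1 and Mafk rose by 0.81 ± 0.25 and 0.66 ± 0.19, and Nr4a2 fell by 0.67 ± 0.18. Etv4, an Ets factor downstream of ERK, rose by 1.76 ± 0.46, a call lost in 3 of the 6 fits that left out an array. Stap2, an adaptor protein, and Ncf4, a subunit of the phagocyte NADPH oxidase, rose by 1.78 ± 0.27 and 1.81 ± 0.29 in dim intensities of 188, 109.9 and 181 with DAT, against 53.8, 22.7 and 31.8 in the controls and of 215, 205 and 160.4 with DAT, against 71.2, 72.3 and 12.2 in the controls.

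Interferon-stimulated genes were higher in 7 of 27 cases and lower in 0, with a median of 0.21. Rsad2, the antiviral enzyme viperin, had 1160.4, 1172 and 1383 with DAT, against 474, 422 and 469 in the controls. The groups were apart by 1.28 ± 0.14 (adjusted p = 8.82e-07). Gbp2, a guanylate-binding GTPase, had 5579.8, 4747 and 5487 with DAT, against 3063, 3247 and 3153 in the controls, a rise of 0.71 ± 0.07 (adjusted p = 1.28e-07), and Cxcl10, a T cell chemokine, and Oas2, an oligoadenylate synthetase, rose by 0.82 ± 0.21 and 0.62 ± 0.14. In class I antigen processing 5 of 11 genes rose and 0 fell (median 0.43), among them the immunoproteasome subunits Psmb10, Psmb8 and Psmb9, by 0.86 ± 0.13, 0.71 ± 0.20 and 0.52 ± 0.15, and the heavy chain H2-K1 by 0.46 ± 0.09. With the replicate block 11 interferon genes rose and 2 fell, and 8 class I genes rose. After median normalization 4 of the interferon and 1 of the class I genes passed, and 3 of the class I genes passed without DAT replicate 3 or control replicate 2. Class I genes share long stretches of sequence, so the probe set of H2-K1 may also read its relatives.

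Of 39 mitotic genes 1 rose, Top2a, a topoisomerase, by 0.37 ± 0.07, and 1, the kinase Plk1, fell by 0.49 ± 0.12. The median was -0.03, and 3 fell with the replicate block. DNA replication had 6 of 38 genes higher and 3 lower (median 0.20), and 13 higher and 3 lower with the replicate block. Of its 38 genes 32 had a positive difference. The licensing factor Cdt1 had 12969, 13238 and 12335 with DAT, against 9756, 9189 and 9992 in the controls, a rise of 0.52 ± 0.10 (adjusted p = 0.00079), and Mcm10 rose by 0.59 ± 0.12, while the polymerase subunit Pola1 fell by 0.58 ± 0.18 and the uracil glycosylase Ung fell by 0.54 ± 0.15. After median normalization the list held 1 higher and 0 lower genes, and Pola1 lost its call in each of the 6 fits that left out an array. Of 31 repair genes 7 rose and 2 fell (median 0.14), and 3 to 4 rose in those 6 fits. Among them were Brca1 and Rad54l of homologous recombination, at 0.70 ± 0.10 and 0.66 ± 0.12, and Xpa of nucleotide excision repair, at -0.61 ± 0.17. Among 25 cyclins, inhibitors and growth arrest genes, Ccnd1 rose by 0.54 ± 0.11, and Cdkn2c, E2f5 and Gas1 were lower, at -0.54 ± 0.09, -0.79 ± 0.21 and -0.46 ± 0.06. With the replicate block 7 of the 25 rose and 6 fell. In the fit over all probe sets, another probe set of E2f5 was lower as well, at -0.61 ± 0.18 (adjusted p = 0.0433). A further one had the opposite sign, at 0.08 ± 0.47 (adjusted p = 0.973).

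Several secreted proteins of the matrix fell. Ogn, Omd and Aspn, small leucine-rich proteoglycans, were the 3 lower genes among 26 matrix genes other than collagens, with 0 higher and a list median of 0.02, and they neighbour each other on 1 chromosome with no other annotated gene between them. Aspn had 238, 181 and 422 with DAT, against 662, 972 and 1217 in the controls, a difference of -1.65 ± 0.38 (adjusted p = 0.00625). Ogn had 1439, 1391 and 2673 with DAT, against 3515, 4605 and 6085 in the controls, a difference of -1.32 ± 0.34 (adjusted p = 0.0147). All 3 lost their call in at least 1 fit that left out an array, Ogn in 3 of the 6. With the replicate block 3 of the 26 rose and 4 fell, and 4 collagen genes rose and 5 fell. Among 28 collagen genes, Lox, which crosslinks collagen, fell by 0.60 ± 0.10 and Col11a1 fell by 0.69 ± 0.22, while Col18a1 and Loxl3 rose by 0.64 ± 0.18 and 0.53 ± 0.11. Proteases went both ways. Adamts1 had 5189, 3386 and 4173 with DAT, against 10155, 8652 and 9407 in the controls, a difference of -1.13 ± 0.13 (adjusted p = 1.58e-06), and its relative Adamts4 had 803, 665 and 689 with DAT, against 305, 339.6 and 277 in the controls, a rise of 1.05 ± 0.14 (adjusted p = 1.58e-05). Mmp13, a collagenase, rose by 1.30 ± 0.26, and 5 of 15 proteases and inhibitors rose with the replicate block, against 3 without it. Of 24 hypoxia and glycolysis genes 6 fell and 1 rose (median -0.12), led by Ankrd37 at -1.08 ± 0.21, Pfkl at -0.80 ± 0.18, Egln3 at -0.76 ± 0.18 and the glucose transporter Slc2a1 at -0.47 ± 0.11.

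Among 11 genes of the insulin-like growth factor axis, Irs1, the insulin receptor substrate, fell by 0.76 ± 0.13. Of the same genes, the binding protein Igfbp4 rose by 0.69 ± 0.13 and Htra1 by 0.45 ± 0.11. Smad6 and Smad2 were lower, at -0.74 ± 0.14 and -0.42 ± 0.12, and Tgfbr3 rose by 0.26 ± 0.07 among 20 genes of TGF-beta signalling, with another probe set of Tgfbr3 of the opposite sign. Slc39a10, a zinc importer, fell by 0.60 ± 0.12 as the 1 changed gene of 5 in the metal response. Fbl, Npm1 and Wdr43 were lower, at -0.52 ± 0.13, -0.21 ± 0.05 and -0.35 ± 0.09, and Tsr1 rose by 0.34 ± 0.09 among 30 ribosome biogenesis genes. Ndufs4, a subunit of complex I, fell by 0.46 ± 0.11 as the 1 changed gene of 28 in oxidative phosphorylation. Tpm2 rose by 0.42 ± 0.12 and Acta2 fell by 0.26 ± 0.08 among 10 contractile genes, and Gsto1 and Gstm2 rose by 0.29 ± 0.08 and 0.23 ± 0.06 among 14 glutathione S-transferases. The replicate block, with which 2568 of all 11384 genes passed, gave 3 higher and 3 lower genes in TGF-beta signalling. In ribosome biogenesis it gave 4 and 3, and in oxidative phosphorylation 3 and 2. It gave 2 and 3 among the contractile genes and 5 and 1 among the glutathione S-transferases.

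The largest falls on this scale were in genes known from the mouse embryo at the 2-cell stage or named by sequence alone. Tcstv1, a 2-cell stage gene, had 5.01, 16.2 and 31.6 with DAT, against 229, 254 and 264 in the controls. The DAT values lie below the median intensity of their arrays, and the difference was -3.17 ± 0.27 (adjusted p = 1.96e-08). AF067061 had 66.6, 50.3 and 50.6 with DAT, against 693, 563 and 559 in the controls, a difference of -3.00 ± 0.31 (adjusted p = 2.98e-07), and BC080696 had 12.9, 16.8 and 2.46 with DAT, against 189, 201 and 166 in the controls, a difference of -3.13 ± 0.34 (adjusted p = 8.82e-07). In Tcstv1 and BC080696 the DAT values lie near or under the pseudocount of 16, which sets the size of the difference. It was -4.07 in Tcstv1 and -4.40 in BC080696 with a pseudocount of 1, and -2.09 and -1.91 with one of 64, so neither value is exact. Gm20767 and D13Ertd608e were lower as well, at -2.75 ± 0.34 and -1.43 ± 0.21. Tcstv1, AF067061, Gm20767 and D13Ertd608e stand on 1 chromosome in a stretch of 25 annotated genes, in which they are the 4 genes tested. Zfp352, a zinc finger gene of the 2-cell stage, had 36.3, 59.5 and 21.8 with DAT, against 236, 198 and 158 in the controls, a difference of -2.08 ± 0.24 (adjusted p = 2.25e-06), and Pramel18, of the Prame family, fell by 1.74 ± 0.32. Such families hold near-identical copies, so which copy a probe set read is uncertain. Among the other large falls, Tecrl, a reductase known from heart muscle, had 116, 121 and 184 with DAT, against 596, 599 and 552 in the controls, a difference of -1.84 ± 0.21 (adjusted p = 1.28e-06), and Cd209c, Igll1, Gabrr1 and 3110040M04Rik stood at -1.85 ± 0.33, -1.66 ± 0.46, -1.65 ± 0.33 and -2.05 ± 0.27 in dim intensities. Igll1 lost its call in 4 of the 6 fits that left out an array.

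DAT was also set directly against the other IC20 treatments of the same duration, whose concentrations differ from its own, with no control array in the test. DAT differed from BaP in 420 genes (3.69%), from MCA in 465 (4.08%) and from AAF in 925 (8.13%) of 11384. The mean correlation of the AAF arrays with the 24 h controls was 0.9834, 0.9832 and 0.9821. Among the controls it was 0.983, 0.9826 and 0.9809, and for the DAT arrays 0.9725, 0.9737 and 0.9733. The contrast with AAF is therefore to be read beside that with the controls. With the replicate block the counts were 1527, 1640 and 2401, and with only the 6 arrays of each pair in the fit they were 74, 105 and 508. Leaving out an array gave 241 to 284, 253 to 345 and 545 to 659. The share of higher genes depended on the normalization: 55.7% against BaP, 59.1% against MCA and 54.3% against AAF after quantile normalization, but 74.5%, 86.2% and 78.1% after equalising medians, which moved the median of all genes to 0.118 against MCA. Passing the test against control and in all 3 direct contrasts were 108 genes in the higher and 76 in the lower direction.

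Of the Ah receptor battery, Cyp1a1 with DAT minus its level with BaP was 0.05 ± 0.17 (95% interval -0.30 to 0.40, adjusted p = 0.95), and minus that with MCA it was 0.11 ± 0.17 (95% interval -0.24 to 0.47, adjusted p = 0.822). Neither difference passed. Against AAF it was higher by 2.03 ± 0.17 (adjusted p = 1.55e-08). Cyp1b1 was higher with DAT than with each of the 3, by 0.36 ± 0.08, 0.48 ± 0.08 and 0.89 ± 0.08 against BaP, MCA and AAF. Nqo1 minus its level with BaP was -0.77 ± 0.12 (adjusted p = 0.000203), a lower value with DAT, and against AAF it was higher by 0.53 ± 0.12 (adjusted p = 0.00389). Aox1 was lower with DAT than with each of the 3 others, at -1.75 ± 0.20, -0.86 ± 0.20 and -0.68 ± 0.20 against BaP, MCA and AAF.

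Rassf1, a Ras effector and tumour suppressor, stood apart from all. It had 4726, 4513 and 4827 with DAT, against 1485, 1326 and 1491 in the controls, and the difference from control was 1.61 ± 0.12 (adjusted p = 1.92e-09). Against BaP, MCA and AAF it was higher by 1.33 ± 0.12, 1.38 ± 0.12 and 1.53 ± 0.12, while 1 of its 3 probe sets did not change past the test. Slc16a6, a monocarboxylate transporter, had 339.7, 208 and 372 with DAT, against 96.8, 82.1 and 65.1 in the controls, a rise of 1.58 ± 0.38 (adjusted p = 0.00775), and its smallest direct difference was 1.64 ± 0.38 against BaP. Crebl2, a bZIP protein, had 1005, 944 and 762 with DAT, against 358, 379.9 and 276 in the controls, a rise of 1.23 ± 0.18 (adjusted p = 4.6e-05), and had 1.11 ± 0.18 as its smallest direct difference, against BaP. Klhl30, of the kelch family, rose by 1.59 ± 0.29, and Rbp2, a retinol-binding protein, by 1.60 ± 0.48, but Rbp2 passed against AAF alone and lost its call against control in 4 of the 6 fits that left out an array. Gadd45a, Nupr1 and Dnajb9 were higher with DAT than with BaP by 1.10 ± 0.16, 1.09 ± 0.13 and 0.98 ± 0.16, and by more against MCA and AAF. In the other direction, DAT minus BaP, MCA and AAF was -3.02 ± 0.27, -2.78 ± 0.27 and -3.30 ± 0.27 in Tcstv1 and -2.03 ± 0.32, -1.75 ± 0.32 and -1.96 ± 0.32 in Pramel18.

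**Figure D3:**
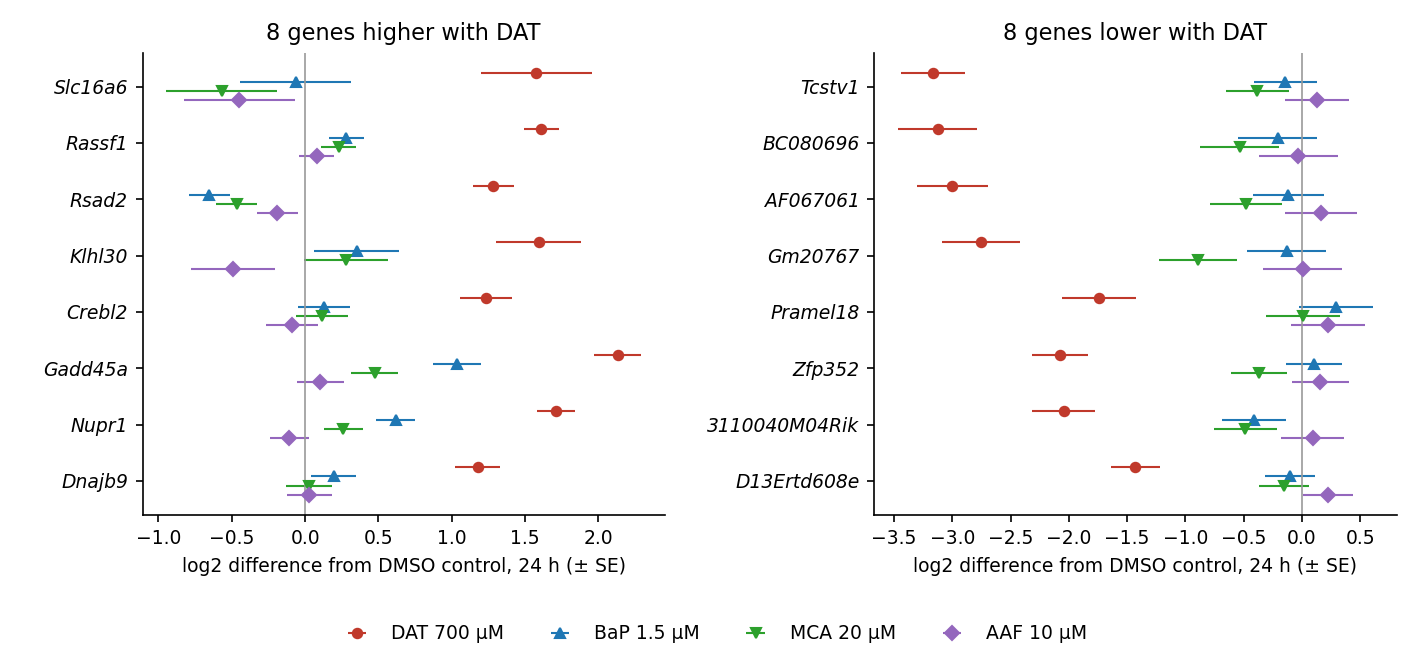
The log2 difference from the shared DMSO controls at 24 h, with its SE, for the 8 higher and 8 lower genes that differed furthest from control and from all 3 other treatments. Circles are DAT at 700 µM, triangles BaP at 1.5 µM and MCA at 20 µM, diamonds AAF at 10 µM; the 4 differences of a gene share their control arrays, and the genes were chosen for this pattern.

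Interferon-stimulated genes gave the widest gap to the polycyclic hydrocarbons. Of the 27, 18 were higher with DAT than with BaP, 16 higher than with MCA and 7 higher than with AAF, and 0 were lower in any of them. The list medians of these differences were 0.67, 0.58 and 0.18 against BaP, MCA and AAF. Rsad2 was higher by 1.94 ± 0.14 (adjusted p = 3.21e-09), 1.75 ± 0.14 and 1.47 ± 0.14. Side by side on the shared controls, Rsad2 stood at 1.28 ± 0.14 with DAT, -0.65 ± 0.14 with BaP, -0.46 ± 0.14 with MCA and -0.19 ± 0.14 with AAF. Cxcl10 stood at 0.82 ± 0.21 with DAT, -0.54 ± 0.21 with BaP, -0.42 ± 0.21 with MCA and -0.17 ± 0.21 with AAF. Irf7, a master regulator of the interferon response that was named after its values were seen, stood at 0.22 ± 0.17 with DAT, -0.78 ± 0.17 with BaP and -0.65 ± 0.17 with MCA. Its direct difference from BaP was 0.99 ± 0.17 (adjusted p = 0.000583). Over the whole list the median difference from control was 0.21 with DAT, -0.47 with BaP, -0.39 with MCA and -0.02 with AAF.

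For the Atf4 list 17 of 34 genes were higher with DAT than with AAF, but 3 were higher than with BaP and 4 higher than with MCA, with 0 lower. Ddit3 was higher in all 3, by 0.43 ± 0.10, 0.67 ± 0.10 and 0.95 ± 0.10 against BaP, MCA and AAF. The p53 list had 11 of 27 higher than with AAF, 3 higher than with BaP and 4 higher than with MCA, with 0 lower. Cholesterol synthesis was lower than with AAF in 4 of 20 genes, of which Sqle differed by -0.76 ± 0.14 (adjusted p = 0.00106). It was lower than with BaP or MCA in 0, and 1 gene of the list was higher than with MCA. On the shared controls the cholesterol list had a median of -0.71 with DAT, -0.71 with BaP, -0.68 with MCA and -0.23 with AAF. In Hmgcs1 the 95% interval of the direct difference was -0.20 to 0.41 against BaP and -0.19 to 0.43 against MCA.

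**Figure D4:**
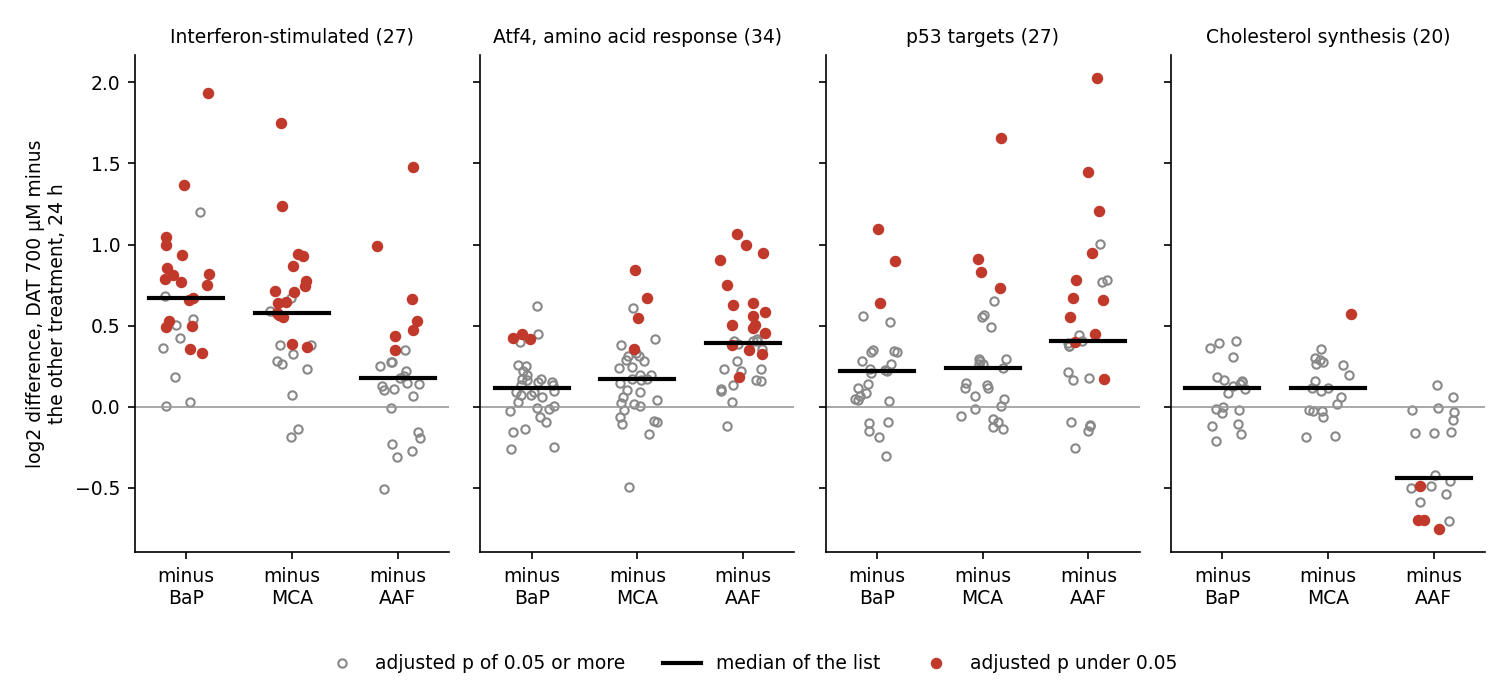
Direct log2 differences of DAT at 700 µM minus BaP at 1.5 µM, MCA at 20 µM or AAF at 10 µM, all 24 h, for the tested members of 4 lists. Filled points passed the adjusted p, the bar is the list median; interferon-stimulated genes lie above 0 against BaP and MCA in most cases, and cholesterol genes below 0 mainly against AAF.

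At 50 µM and 24 h, DAT changed 26 of 11957 genes (0.217%), 104 with the replicate block and 5 without DAT replicate 2 or 3. That comparison comes from the first approach with its own controls and shares no array with the one above, and the mean intensity of an array was 221 to 264 in the first approach and 723 to 796 in the second, so no test was run between the concentrations. Of the 26 genes, 10 also passed at 700 µM and in the same direction, which is 38.5% of the 26 and 0.986% of the 1014 genes past the test at 700 µM among the 10704 tested in both. Cyp1a1 stood at 2.48 ± 0.12 with 50 µM and 5.15 ± 0.17 with 700 µM. Cyp1b1 stood at 0.98 ± 0.06 with 50 µM and 1.79 ± 0.08 with 700 µM. Chil1 stood at 0.63 ± 0.11 with 50 µM and 1.42 ± 0.31 with 700 µM, and Ier3 at 0.47 ± 0.07 with 50 µM and 1.54 ± 0.15 with 700 µM. BC080696 was lower in both, at -0.66 ± 0.12 and -3.13 ± 0.34, as was Slc39a10, at -0.40 ± 0.06 and -0.60 ± 0.12. The remaining 4 were named after their values were seen and were lower in both: Fgfr2, Pmepa1, a target of TGF-beta, the linker histone gene H1f2, and Ncam1, an adhesion protein. Pmepa1 stood at -0.58 ± 0.12 with 50 µM and -1.22 ± 0.19 with 700 µM. Gadd45a, Nupr1 and Ddit3 did not pass at 50 µM, at -0.09 ± 0.10, -0.18 ± 0.11 and -0.23 ± 0.05.

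**Figure D5:**
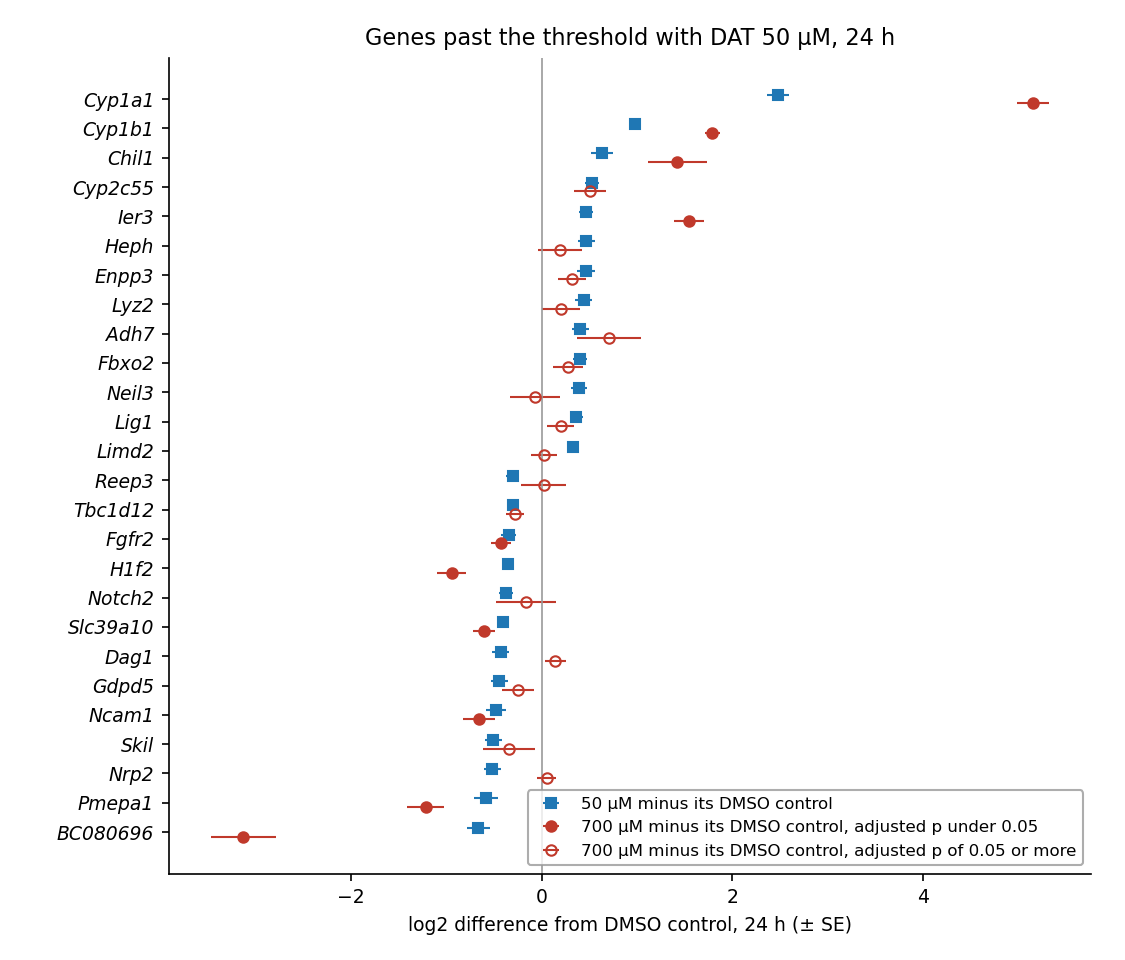
The 26 genes past the threshold with DAT at 50 µM for 24 h, as log2 differences from their own DMSO controls with the SE. Squares are 50 µM and circles 700 µM, filled where the 700 µM difference passed; the 10 filled circles lie on the same side of 0 as their squares.

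After 120 h at 50 µM, 2978 of 11957 genes (24.9%) differed from their controls. Of the 1014 genes past the test at 700 µM and 24 h, 294 changed in the same direction, which is 29.0% of the 1014 and 9.95% of the 2956 past the test at 120 h among the genes tested in both. Another 112 changed in the opposite direction. Cyp1a1 stood at 3.91 ± 0.12 there, Rsad2 at 1.04 ± 0.14 and Ptgs2 at 1.36 ± 0.10. Gadd45a was lower at 120 h, at -0.52 ± 0.10, and Tcstv1 stood at 0.04 ± 0.15 and did not pass. At 0.2 µM for 120 h, in the second approach and against its controls of that time, Cyp1a1 stood at 0.01 ± 0.17 and Gadd45a at -0.07 ± 0.16.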

How the data were processed

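RNA was measured on 60 Affymetrix mouse arrays, 3 for each of 20 groups, and the deposited values are probe set intensities on a linear scale. GCOS made them, per the submitters' processing notes, but how background was corrected, probes were summarized and arrays were scaled is not given in the sources used here. Probe sets were named from the platform annotation. Of 45101 probe sets 34958 had 1 gene symbol, 932 had several, 9211 were unlisted and 204 kept an older symbol, and each of the 18194 symbols took its probe set with the highest mean intensity.

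The 2 approaches were handled separately, since the mean intensity of an array was 221 to 264 in the first and 723 to 796 in the second. Intensities plus 16 were put on the log2 scale and quantile normalised within the 30 arrays of an approach. A gene was kept when it lay above the array median in at least 3 arrays, which left 11384 genes in the second approach and 11957 in the first. One limma model (lmFit and eBayes with trend, limma 3.58.1 in R 4.3.3) covered the 10 groups of an approach with 20 residual degrees of freedom. Tests were two-sided, with Benjamini-Hochberg adjustment over all genes and a threshold of 0.05. The tests were tested on simulated arrays of the second approach with known changes. The simulated noise was independent between arrays, so it does not cover the correlation of same-numbered arrays described below. The number of arrays, 3 a group, limits the precision.

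The labels number the replicates alike in every group. Deviations of same-numbered arrays from their group means correlated by 0.317, 0.394 and 0.446 between DAT at 700 µM and control. The lowest such value over the 5 comparisons was 0.146. The mean of -0.193 between arrays of different number follows from the same-number values, since deviations from a group's mean cancel out. A fit with the number as a block was therefore added as an alternative. Differences, SEs and adjusted p-values come from the fit without the block, unless the block is named. Other alternatives were no normalization, median normalization, pseudocounts of 1 and 64, no filter, all probe sets, other sets of arrays in the fit and leaving out each array.

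The members and the gene lists were chosen with earlier results of these data known. Named genes are the 12 largest rises and falls among genes past the test whose groups do not overlap, up to 4 past the test with the largest change from each list, 10 genes taken in any case (Cyp1a1, Cyp1b1, Nqo1, Cdkn1a, Mdm2, Hmox1, Ddit3, Atf3, Nat2 and Hmgcs1), and in each direction the 8 that stood furthest from control and from the other 3 treatments. Of the 132 named and tested genes, 98 had a promoter entry in RefSeq (GRCm38.p6), and 71 of the 128 past the test had more than 1 tested probe set, of which 31 had another past the test in the same direction and 5 another of the opposite sign. Groups of the other treatments at 120 h gave no comparison here.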

Additional observations from a re-analysis of the deposited data

How the results depend on the processing

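With 3 arrays a group, the number of genes past the threshold depended on which arrays set the spread, and the cause was not tested. The 1046 genes of DAT at 700 µM against control became 422 after median normalization (409 of them shared), 642 with the 6 arrays alone (580 shared), 2080 with 60 arrays in 1 fit, 2568 with the replicate block and 648 to 767 without an array. The 420 against BaP became 137, 74, 1197 and 1527 under the same 4 settings and 241 to 284 without an array. The 465 against MCA became 217, 105, 1302 and 1640, and 253 to 345 without an array. The 925 against AAF became 393, 508, 1888 and 2401, and 545 to 659 without an array. The 26 of DAT at 50 µM became 9 with no normalization (66.7% of them higher, against 50% in the fit reported), 10 after median normalization (70% higher), 15 over all probe sets, 4 with 6 arrays, 3 with 60 arrays, 104 with the replicate block and 5 to 28 without an array. Pseudocounts of 1 and 64 and no filter on dim genes left all 5 counts within 1.5 times their value. Of the 132 named genes 0 changed direction in an alternative where that or the reported fit passed, but many alternatives could not change it. The fits with no filter, all probe sets, the block, 6 arrays or 60 arrays reuse the same normalised values of a gene's probe set. Leaving out an array cannot turn a gene whose groups do not overlap. The call was lost by 46 after median normalization, 32 with the 6 arrays alone, 14 with no filter on dim genes, 10 over all probe sets and 7 with no normalization. The block gave a call to 1 more and took away 0. Without an array, 24 to 35 lost it, 35 without DAT replicate 1 and 34 without control replicate 2. The 50 concerned were Acaca, Acsl3, Acss2, Acta2, Aox1, Aspn, Atf6, Bid, Cd14, Col11a1, Col18a1, Cryab, Ctsb, Cxcl10, Dusp1, Dusp4, E2f5, Egln3, Ern1, Etv4, Fbl, Fdps, Fosl1, Gstm2, Gsto1, Htra1, Igll1, Mafk, Ndufs4, Npc1, Npm1, Nr4a2, Ogn, Omd, Pgd, Phlda1, Pola1, Psmb8, Psmb9, Rbp2, Smad2, Sqstm1, Srxn1, Tgfbr3, Tpm2, Tsr1, Ung, Wdr43, Xbp1 and Xpa. Genes that were dim in both groups give no firm fold, since the pseudocount and the background set their differences.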
